A study of Homo sapiens with 6 samples.

Results

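The DNAJ family comprises the co-chaperones that carry a J domain and are named DNAJA, DNAJB or DNAJC followed by a number. Genes were taken as members when their symbol had exactly this form, which gave 42 of the 30960 genes in the table, 4 of class A, 12 of class B and 26 of class C. Of these, 37 were measured well enough to be tested, and the other 5 are given by their reads further on. Pseudogenes, antisense transcripts and read-through transcripts with a DNAJ symbol, 13 genes in all, were not counted as members. HEK293 is a human embryonic kidney cell line. Both groups were HEK293 cells harvested for RNA at 48 h after a plasmid at 158 ng per square centimetre had been introduced with a lipid reagent, and both plasmids encoded a GFP fusion protein. In the PKI group the fusion carried PKI1-24, a segment of protein kinase inhibitor, and in the inPKI group, named as the control in the labels, it carried inPKI1-24. Each group had 3 libraries, A, B and C, and the comparison asked which transcripts differ between them. The treatment protocol describes a transfection and the design text a transduction. Separate cultures are not stated for the libraries, so every p below reflects how these particular libraries varied, and that variation may be technical. Expression of the fusion is not stated per cell, so a difference in a pool of transfected and untransfected cells cannot be told apart from a smaller or larger difference in fewer or more cells.

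J proteins bring unfolded polypeptides to HSP70 chaperones and, through the J domain, stimulate the HSP70 ATPase, which makes HSP70 close on its client. Class A members share the domain order of bacterial DnaJ, with a glycine- and phenylalanine-rich stretch and a zinc-binding region. Class B members lack the zinc-binding region, and class C members share only the J domain and serve single compartments or tasks, such as the lumen of the endoplasmic reticulum, mitochondrial import or the uncoating of clathrin vesicles. A few members, DNAJB1 above all, are heat shock genes whose transcription is driven by HSF1.

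The libraries held 21202701, 23589438 and 17244715 reads in PKI A, B and C, and 20088703, 21387137 and 18707086 reads in inPKI A, B and C. CPM, the unit used below, is a gene's read count scaled to the size of its library by the authors. PKIA, the gene that encodes the alpha form of the inhibitor, measured 43.9 ± 1.96 CPM in PKI and 9.68 ± 1.46 CPM in inPKI (SD, n = 3 each). PKIA rose by 2.08 ± 0.0879 on the log2 scale (limma, adjusted p = 5.64e-09), so the libraries separate as labelled, and reads from the plasmid cannot be told apart from those of the gene. All 5 genes listed for HEK293 cells (NEFL, NEFM, CDH2, VIM and LIN28B) were present, with summed levels of 880 to 999 CPM in PKI and 985 to 1012 CPM in inPKI. Of the fibroblast list DCN was listed at 0 and COL1A1 made up nearly all of a sum of 17.3 to 20.7 CPM in PKI and 16.7 to 18.7 CPM in inPKI, and of the leukocyte list CD3E was at 0 with a sum of at most 0.569 CPM in any library. The 4 keratinocyte genes were all detected and summed to 15.0 to 17.8 CPM in PKI and 15.0 to 39.7 CPM in inPKI, where inPKI C stood apart with 26.5 CPM of KRT5 and 12.2 CPM of KRT14. PKI C stood lowest over all tested genes, with a median of −0.05 on the log2 scale from the inPKI mean, against 0.01 and 0.02 for PKI A and B.

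Of the 37 tested members, DNAJB1 alone passed the test in PKI against inPKI, and it rose. None was called lower, and 36 did not pass. Over all 14275 genes tested, 14 were called higher (0.0981%) and 4 lower (0.028%), with limma and an adjusted p below 0.05. At an unadjusted p below 0.05, 3 members were higher (DNAJB1, DNAJB14 and DNAJC6) and 1 was lower (DNAJC25), where 7.53% of all genes tested were higher and 6.16% lower. The groups did not overlap in 3 members on the higher side, DNAJB1, DNAJB14 and DNAJC6, and in 3 on the lower side, DNAJA3, DNAJC8 and DNAJC25. Among all genes tested the matching shares were 10.9% and 8.88%, and counts of 3 of 37 members on either side lie close to these shares.

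Log2 changes, PKI minus inPKI, ran from −0.23 for DNAJC25 to 0.42 for DNAJB1, with 15 members above 0, 22 below 0 and a median of −0.03. The median over all genes tested was −0.0074, with 6771 above 0 and 7504 below 0. Class A had 0 of 3 members above 0 (1 without inPKI A) and a median of −0.08, class B 6 of 9 and 0.02, and class C 9 of 25 and −0.03. The median of class B was −0.02 without PKI A and −0.02 without inPKI B, with 4 of 9 above 0 in each case, and that of class C was 0.02 with 13 of 25 above 0 without PKI C. The PKI C library lay lowest for the family as it did for all genes. Its members' median was −0.08 from the inPKI mean with 27 of 37 below it, against −0.01 and 0.02 in PKI A and B, where 21 and 12 members lay below it. Without PKI C the family median was 0.016 with 20 of 37 above 0, so the sign of the family median rested on that library.

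**Figure D1:**
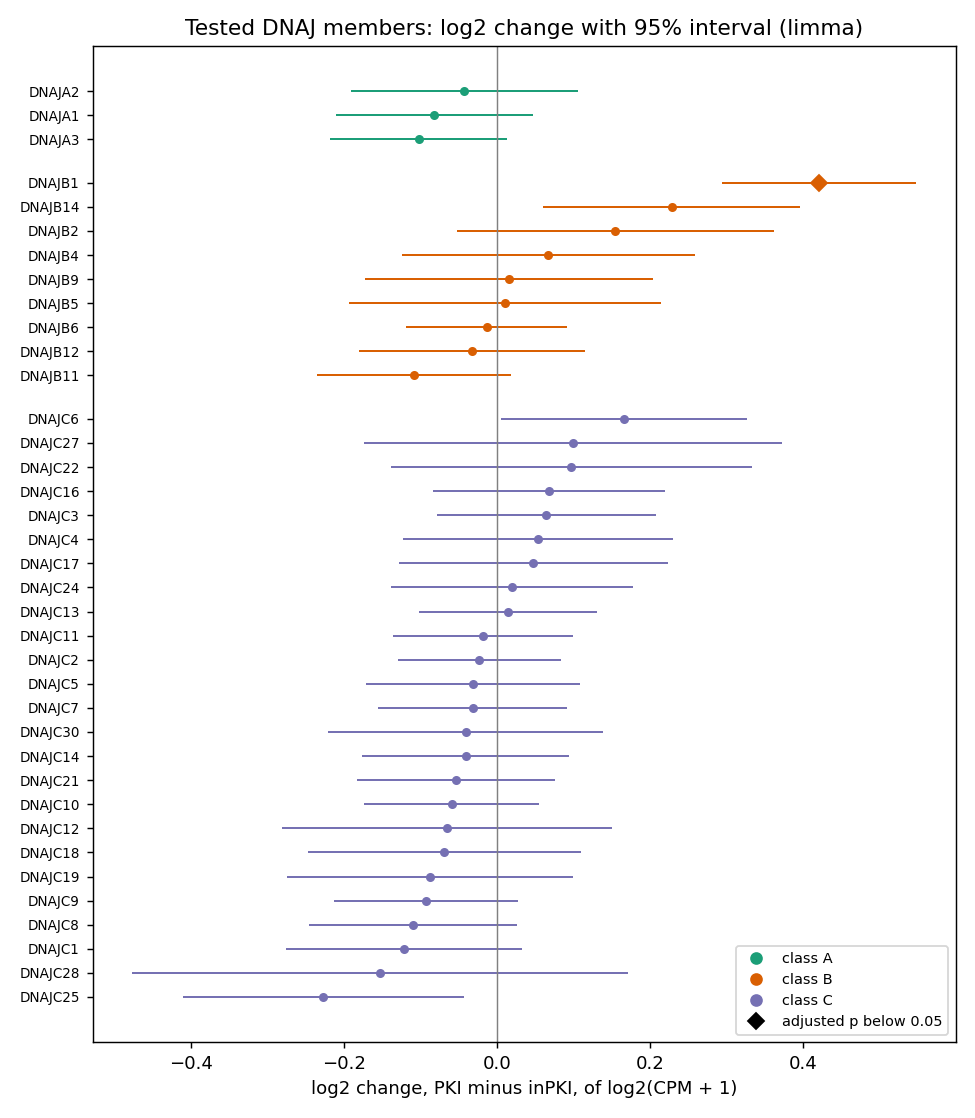
Log2 change of log2(CPM + 1), PKI minus inPKI, on the horizontal axis for the 37 tested DNAJ members, grouped by class and ordered by change, with bars for the 95% interval from limma. DNAJB1 at 0.42 is the 1 member past an adjusted p of 0.05, and the intervals of 31 of the other 36 members lie wholly below its interval.

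DNAJB1, also called HSP40, is the main stress-induced cytosolic partner of HSP70. Its gene (ENSG00000132002.7) lies on the minus strand of chromosome 19 at 14514770 to 14529770 in GENCODE 29 on GRCh38. It measured 199.9, 218.2 and 194.5 CPM in PKI A, B and C, and 148.5, 147.3 and 160.7 CPM in inPKI A, B and C. Every PKI library stood above every inPKI library, with a gap between the lowest PKI value and the highest inPKI value that is wider than the range within either group. The means were 204 ± 12.4 CPM in PKI and 152 ± 7.44 CPM in inPKI (SD, n = 3 each), a difference of 34.2%. The log2 change was 0.42 ± 0.0595 (SE), with a 95% interval of 0.29 to 0.55 and an adjusted p of 0.00848 by limma. The values rest on 5413, 6556 and 4447 reads in PKI and 3808, 4038 and 3886 reads in inPKI, whose counting error is at most 1.62% of a value, below the 6.07% (PKI) and 4.89% (inPKI) spread between libraries. All 13 of the other genes called higher in PKI rose by more than DNAJB1, and 7 genes had a smaller p.

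The call of DNAJB1 depends on the inPKI libraries A and B, and on limma's filter and trend, since its adjusted p was 0.170 with no filter on low genes and 0.178 without a trend of variance on mean. Without inPKI A its adjusted p was 0.0905 with a log2 change of 0.40, and without inPKI B 0.0930 with 0.40. Without inPKI C, the library with more KRT5 and KRT14, it was 0.0194 with a log2 change of 0.46. It also passed without each PKI library in turn, at 0.0124, 0.00991 and 0.000313 without PKI A, B and C. The gene TECR, which encodes an enzyme of very long chain fatty acid elongation, overlaps DNAJB1 on the opposite strand, and whether reads were counted by strand is not given in the sources used here. TECR measured 93.0 ± 11.4 CPM in PKI and 103 ± 4.0 CPM in inPKI, with a log2 change of −0.16 ± 0.0746 and an adjusted p of 0.371. Whether reads of TECR were counted for DNAJB1, or the reverse, was not tested. PRKACA, which encodes the catalytic subunit that PKI binds, lies 396.7 kb from DNAJB1 on the same strand and measured 64.9 ± 7.18 CPM in PKI and 69.5 ± 1.38 CPM in inPKI (log2 change −0.10 ± 0.0687, adjusted p = 0.521).

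**Figure D2:**
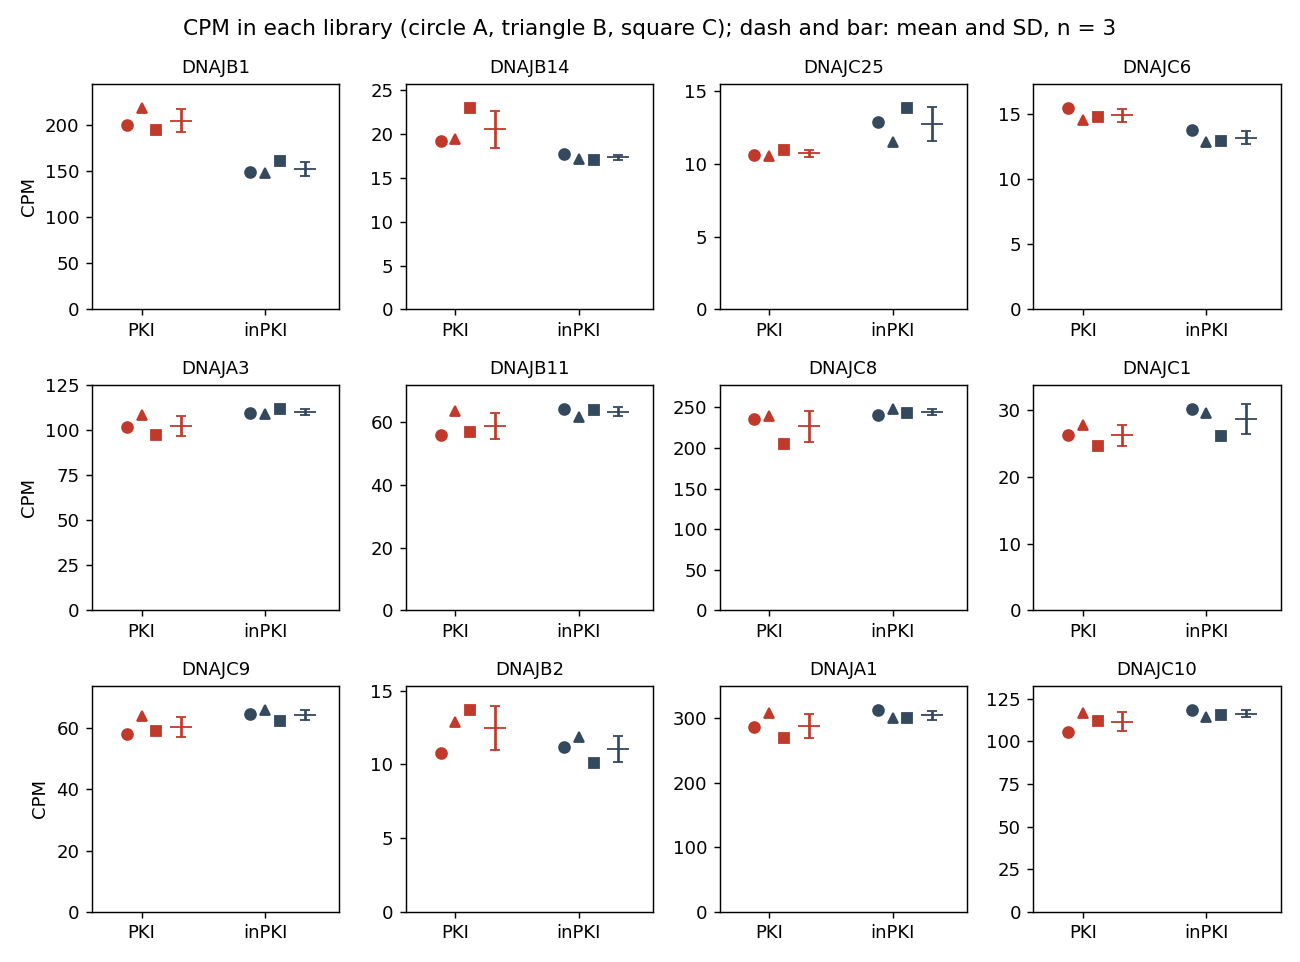
CPM in each library (circle A, triangle B, square C) with the mean and SD of 3 libraries, PKI in red and inPKI in dark blue, for the 12 DNAJ members with the smallest limma p, each on its own axis from 0. The DNAJB1 libraries lie between 194.5 and 218.2 CPM in PKI and between 147.3 and 160.7 CPM in inPKI, whereas the panels of DNAJB11, DNAJC1, DNAJC9, DNAJB2, DNAJA1 and DNAJC10 overlap.

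The place of DNAJB1 within the family was also read as a share of CPM. DNAJB1 made up 9.18%, 9.63% and 9.46% of the family's CPM in PKI A, B and C, against 6.75%, 6.77% and 7.43% in inPKI A, B and C. Within class B its share was 41.9%, 43.0% and 41.5% in PKI, against 34.3%, 34.7% and 36.2% in inPKI. The remaining class B members summed to 280 ± 7.88 CPM in PKI and 282 ± 4.17 CPM in inPKI, within the spread of either group. For every CPM of DNAJA1 there was 0.698, 0.709 and 0.721 CPM of DNAJB1 in PKI, and 0.475, 0.490 and 0.535 CPM in inPKI. Each of these 3 quantities separated the groups without overlap, and each gave an exact 2-sided permutation p of 0.1, the smallest that 3 libraries against 3 allow. All 10 such shares and ratios tested are not independent, since DNAJB1 stands in each. DNAJB1 was singled out from these data, where its own CPM already separated the groups, so these p-values are no further support for its rise. The whole family summed to 2166 ± 106 CPM in PKI and 2180 ± 18.8 CPM in inPKI, and without DNAJB1 to 1962 ± 94.4 CPM in PKI and 2027 ± 24.9 CPM in inPKI.

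HSF1 binds inverted repeats of GAA, and 2 such motifs were searched in the 250 bases before each RefSeq start. GAANNTTC has the repeats head to head and TTCNNGAA has them tail to tail, and each reads the same on both strands. RefSeq windows on GRCh38.p14 were found for 38 of the 42 members, 50 windows in all, because some genes have several starts, and DNAJB3, DNAJC1, DNAJC22 and DNAJC24 had none in the table used. DNAJB1 had 3 starts. The window of 1 of them held GAAGGTTC at 77 to 70 bases before the start and GAAGCTTC at 47 to 40 bases before it. The window of 1 of the starts of DNAJA4, a class A member near the limit of detection here, held the same pair of runs, at 91 to 84 and 52 to 45 bases before its start. DNAJA1 had a single match, and DNAJB6 had a head-to-head and a tail-to-tail match that share 3 letters. HSPA6, a stress-inducible HSP70 gene that rose in these cells, is shown beside them. The 5 windows are printed because they set DNAJB1 beside a member with the same pair of runs that was hardly detected, 2 members with a match that did not pass the test, and the HSP70 gene that rose. Capitals mark the matched letters, and the last base of each window is the base before the start.
DNAJB1, chr19:14518398-14518647, minus strand: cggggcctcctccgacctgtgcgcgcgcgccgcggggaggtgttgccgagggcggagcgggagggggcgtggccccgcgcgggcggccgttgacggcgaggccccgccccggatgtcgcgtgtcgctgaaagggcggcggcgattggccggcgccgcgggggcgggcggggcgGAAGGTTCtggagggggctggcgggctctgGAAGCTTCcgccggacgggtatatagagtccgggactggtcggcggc
DNAJA4, chr15:78264312-78264561, plus strand: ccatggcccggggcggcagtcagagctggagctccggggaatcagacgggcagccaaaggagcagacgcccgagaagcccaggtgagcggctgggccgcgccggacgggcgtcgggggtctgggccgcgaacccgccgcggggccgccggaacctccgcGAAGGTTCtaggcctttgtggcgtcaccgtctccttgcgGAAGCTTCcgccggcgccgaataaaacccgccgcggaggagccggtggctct
DNAJA1, chr9:33025023-33025272, plus strand: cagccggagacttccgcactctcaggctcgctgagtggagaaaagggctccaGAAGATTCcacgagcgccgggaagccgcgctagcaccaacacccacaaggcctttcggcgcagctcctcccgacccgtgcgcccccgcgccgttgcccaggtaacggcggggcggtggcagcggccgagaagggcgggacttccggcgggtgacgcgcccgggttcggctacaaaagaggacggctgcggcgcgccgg
DNAJB6, chr7:157336754-157337003, plus strand: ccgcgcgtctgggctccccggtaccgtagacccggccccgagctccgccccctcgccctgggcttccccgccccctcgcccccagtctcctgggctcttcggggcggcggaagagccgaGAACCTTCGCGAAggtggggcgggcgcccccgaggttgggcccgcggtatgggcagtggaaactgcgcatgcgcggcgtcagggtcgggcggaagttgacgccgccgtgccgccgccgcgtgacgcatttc
HSPA6, chr1:161524290-161524539, plus strand: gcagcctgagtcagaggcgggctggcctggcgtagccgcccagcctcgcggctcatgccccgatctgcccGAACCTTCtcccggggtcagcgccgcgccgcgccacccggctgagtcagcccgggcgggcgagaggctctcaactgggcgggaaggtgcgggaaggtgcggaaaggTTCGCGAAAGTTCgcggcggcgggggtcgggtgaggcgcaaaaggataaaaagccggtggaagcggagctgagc

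The head-to-head motif GAANNTTC occurred in 5 of the 50 windows of DNAJ members (10.0%), those of DNAJA1, DNAJA4, DNAJB1, DNAJB6 and DNAJB7, and in 5.78% of the 35116 windows of all genes. The tail-to-tail motif TTCNNGAA occurred in 3 of 50 (6.0%), of DNAJB4, DNAJB6 and DNAJC15, and in 6.62% of all windows. At least 1 of them stood in 7 of 50 member windows (14.0%) and in 11.6% of all windows. Both sharing 3 letters, as in DNAJB6, occurred in 1 of 50 (2.0%) and in 0.441% of all windows, HSPA6 among them. The palindromic cAMP response element TGACGTCA, the site of the PKA-regulated factor CREB, was matched in 2 of 50 windows (4.0%), both of DNAJC27 and both the same site seen from different starts, and in 1.65% of all windows. Of the 7 members with a heat shock motif, DNAJB1 was called, DNAJA1, DNAJB4 and DNAJB6 were tested and did not pass, and DNAJA4, DNAJB7 and DNAJC15 were too low to test. Among the 14782 windows of tested genes, the shares were 4.12% for GAANNTTC, 5.24% for TTCNNGAA and 8.79% for either. They were 0.311% for both sharing 3 letters and 2.48% for TGACGTCA. The 50 member windows include those of untested members. A match describes letters in these windows, and binding was not measured.

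**Figure D3:**
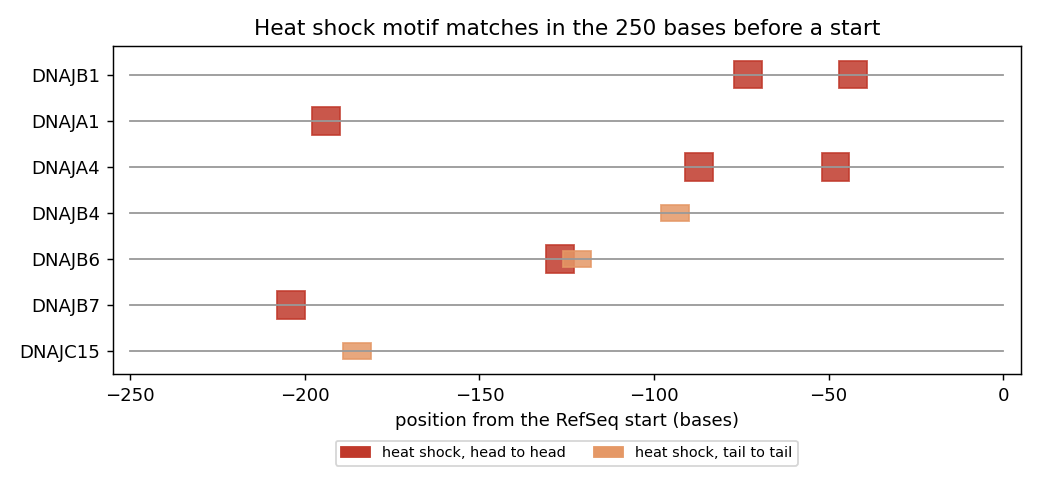
Positions of GAANNTTC (head to head, dark boxes) and TTCNNGAA (tail to tail, light boxes) in the 250 bases before a RefSeq start, in bases from the start, for the 7 DNAJ members with a match. DNAJB1 and DNAJA4 each show a pair of head-to-head matches in the last 100 bases, and the 2 matches of DNAJB6 overlap.

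The other 3 members listed as heat-inducible, DNAJA1, DNAJB4 and DNAJB5, did not pass the test. DNAJA1, a cytosolic partner of HSPA8, measured 286, 308 and 270 CPM in PKI, against 312, 300 and 300 CPM in inPKI (log2 change −0.08 ± 0.0604, adjusted p = 0.566 by limma). PKI A and C lay below all inPKI libraries and PKI B lay among them. DNAJB4 had 10.6, 11.8 and 11.3 CPM in PKI, against 10.4, 11.9 and 9.93 CPM in inPKI (log2 change 0.07 ± 0.0897, adjusted p = 0.767). DNAJB5 had 9.90, 9.65 and 8.75 CPM in PKI, against 9.28, 8.46 and 10.4 CPM in inPKI (log2 change 0.01 ± 0.0955, adjusted p = 0.974). Of the 4 members on that list 1 rose, 3 lay above 0 and the median log2 change was 0.04. Only 2 of the 4 lay above 0 without PKI A, without PKI B or without inPKI B. DNAJA4, also known to respond to heat, was not on the list and was too low to test.

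Among DNAJB6, DNAJA2 and DNAJB2 the groups overlapped. DNAJB6, which keeps polyglutamine proteins from aggregating, had 115, 113 and 112 CPM in PKI, against 115, 113 and 115 CPM in inPKI (log2 change −0.01 ± 0.0493, adjusted p = 0.930). Its 95% interval of −0.12 to 0.09 ended well below that of DNAJB1. DNAJA2, another constitutive cytosolic member, had 77.5, 75.3 and 70.2 CPM in PKI, against 81.6, 80.7 and 68.0 CPM in inPKI (log2 change −0.04 ± 0.0694, adjusted p = 0.818). DNAJB2, which has ubiquitin-interacting motifs and is known from neurons, had 10.8, 12.9 and 13.7 CPM in PKI, against 11.2, 11.9 and 10.1 CPM in inPKI (log2 change 0.15 ± 0.0970, adjusted p = 0.493). DNAJC7, a class C member with tetratricopeptide repeats that binds both HSP70 and HSP90, had 174, 180 and 159 CPM in PKI, against 173, 180 and 171 CPM in inPKI (log2 change −0.03 ± 0.0578, adjusted p = 0.842). The list of members with another role held 13 genes, of which 9 were tested, 0 passed, 4 lay above 0 and 5 below 0, with a median of −0.01.

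None of the 10 members listed for the endoplasmic reticulum passed the test. They moved apart from each other, 4 above 0 and 6 below with a median of −0.05 (5 of 10 above 0 and a median of 0.02 without PKI C). DNAJB14, a J protein of the reticulum membrane, had 19.2, 19.5 and 23.0 CPM in PKI, against 17.7, 17.2 and 17.1 CPM in inPKI. Its groups did not overlap, but PKI C stood well above PKI A and B, and the log2 change of 0.23 ± 0.0786 had an adjusted p of 0.234. Its close relative DNAJB12 lay at 44.7 ± 4.33 CPM in PKI and 45.6 ± 1.6 CPM in inPKI (log2 change −0.03 ± 0.0690, adjusted p = 0.864). DNAJC25, a membrane protein, lay on the other side, with 10.6, 10.5 and 10.98 CPM in PKI, against 12.9, 11.5 and 13.9 CPM in inPKI (log2 change −0.23 ± 0.0860, adjusted p = 0.278). Its groups did not overlap. The annotated read-through DNAJC25-GNG10 shares its exons, so reads could be split between them, and that gene had 7.61, 7.22 and 8.18 CPM in PKI, against 7.57, 12.8 and 9.56 CPM in inPKI (adjusted p = 0.331).

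The folding factors of the reticulum lumen overlapped between the groups. DNAJB11, a co-chaperone of the lumenal HSP70 BiP that binds nascent clients, had 55.8, 63.4 and 56.7 CPM in PKI, against 64.1, 61.6 and 63.9 CPM in inPKI (log2 change −0.11 ± 0.0593, adjusted p = 0.435). DNAJC1, a membrane member that binds BiP, had 26.2, 27.7 and 24.6 CPM in PKI, against 30.1, 29.6 and 26.0 CPM in inPKI (log2 change −0.12 ± 0.0723, adjusted p = 0.469). DNAJC10, a disulfide reductase, had 106, 117 and 112 CPM in PKI, against 118, 114 and 116 CPM in inPKI (log2 change −0.06 ± 0.0538, adjusted p = 0.646). DNAJB9 and DNAJC3, which are induced when unfolded proteins accumulate in the reticulum, lay close to 0, with log2 changes of 0.02 ± 0.0883 for DNAJB9 and 0.06 ± 0.0669 for DNAJC3. DNAJC16 and DNAJC18 were at 0.07 ± 0.0712 and −0.07 ± 0.0834.

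All 5 tested mitochondrial members had estimates below 0, with a median of −0.09, but none passed the test. DNAJA3, a class A protein of the mitochondrial matrix, had 102, 109 and 97.5 CPM in PKI, against 110, 109 and 112 CPM in inPKI (log2 change −0.10 ± 0.0542, adjusted p = 0.426). Its groups did not overlap, though PKI B and inPKI B were 108.6 and 109.0 CPM. The others were DNAJC11, tied to the inner membrane organizing system, at −0.02 ± 0.0551, DNAJC19, a member of the import motor, at −0.09 ± 0.0876, DNAJC30 at −0.04 ± 0.0842 and DNAJC28 at −0.15 ± 0.152. DNAJC28 rested on 32 to 50 reads per library, the fewest among tested members. Without PKI C, the library that lay lowest over all genes, 1 of the 5 lay above 0, as did 1 with the trend of change with transcript length removed.

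Nor did any of the 5 nuclear and ribosome-linked members pass, with 1 above 0, 4 below and a median of −0.05. DNAJC8, associated with the spliceosome, had 235, 240 and 204 CPM in PKI, against 241, 248 and 243 CPM in inPKI (log2 change −0.11 ± 0.0636, adjusted p = 0.458). All 3 inPKI libraries lay above the PKI libraries, and PKI C was the lowest by far. DNAJC9, a histone chaperone, had 58.1, 64.1 and 59.0 CPM in PKI, against 64.7, 66.0 and 62.5 CPM in inPKI (log2 change −0.09 ± 0.0564, adjusted p = 0.485). DNAJC2, which acts at the ribosome exit tunnel, DNAJC21, a factor of large subunit assembly, and DNAJC17 had log2 changes of −0.02 ± 0.0501, −0.05 ± 0.0606 and 0.05 ± 0.0824.

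Of the 4 vesicle and endosome members 0 passed, 3 lay above 0 and the median was 0.06. With the trend of change with transcript length removed, 2 of the 4 lay above 0, the median was −0.01 and the log2 change of DNAJC6 was 0.11. DNAJC6, or auxilin, which recruits HSPA8 to strip clathrin from vesicles and is known chiefly from neurons, had 15.5, 14.5 and 14.8 CPM in PKI, against 13.8, 12.9 and 13.0 CPM in inPKI. Its groups did not overlap, and the log2 change of 0.17 ± 0.0753 had an adjusted p of 0.350. GAK, the ubiquitous relative of auxilin, had 68.5 ± 0.867 CPM in PKI and 64.0 ± 3.02 CPM in inPKI. DNAJC5, the cysteine string protein of secretory vesicles, DNAJC13, an endosomal sorting factor, and DNAJC27 had log2 changes of −0.03 ± 0.0654, 0.01 ± 0.0546 and 0.10 ± 0.128.

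The precision of these values bounds what could have been missed. On the scale of log2(CPM + 1), 33 of the 36 members that did not pass had a 95% interval within 1.3-fold in either direction. On that scale 0 had an upper bound above the estimate of DNAJB1. The scale understates the change of low genes, so the bounds are wider in CPM for low members. DNAJC27, at 4.87 CPM in PKI and 4.48 CPM in inPKI, is such a member. The tested members rested on 32 to 9246 reads per library. Their libraries had a median coefficient of variation of 6.21% in PKI and 3.61% in inPKI. Counting error is the least error that these values carry, because duplicate reads cannot be told apart in them.

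The 5 members that were not tested had few or no reads. DNAJA4, a cytosolic member, had 18, 18 and 16 reads in PKI and 23, 20 and 22 reads in inPKI, or 0.599 to 0.700 CPM in PKI and 0.729 to 0.910 CPM in inPKI, without overlap. DNAJB7 had 5, 4 and 6 reads in PKI and 1, 8 and 4 in inPKI. DNAJB13, a sperm flagellum protein, had 1, 0 and 3 reads in PKI and 2, 1 and 2 in inPKI. DNAJC15, a mitochondrial import protein, had 2, 1 and 0 reads in PKI and 1, 1 and 4 in inPKI. DNAJB3 had 0 reads in all 6 libraries. At these depths no difference in DNAJB7, DNAJB13, DNAJC15 or DNAJB3 was detectable.

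Levels were ranked between genes after division by transcript length, unlike the shares and ratios of DNAJB1, which rest on undivided CPM. In CPM per kb, as the mean and range of the 6 libraries, DNAJC8 stood highest at 134 (116 to 141), followed by DNAJA1 at 124 (113 to 131), DNAJB1 at 100 (83.0 to 123), DNAJC7 at 97.3 (89.5 to 101) and DNAJB6 at 82.2 (80.7 to 83.3). The ranges of DNAJC8 and DNAJA1 overlapped, and that of DNAJB1 overlapped all of the other 4. The place of DNAJB1 differed by group, since it averaged 115 CPM per kb in PKI and 85.7 in inPKI, where DNAJC7 averaged 96.3 in PKI and 98.3 in inPKI. DNAJC7 and DNAJB6 did not overlap, and DNAJC10 at 68.2 (63.3 to 70.9) stood below DNAJB6 without overlap. The other leading members of their classes were DNAJA3 at 41.1 (37.6 to 43.2), DNAJB11 at 29.8 (27.3 to 31.4) and DNAJA2 at 24.2 (21.8 to 26.1). The length is the median over a gene's annotated transcripts, and which of them were expressed was not measured. These ranges hold only the spread of libraries, so the order of genes also rests on that length.

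J proteins act through HSP70, so the 16 genes listed as HSP70 were set beside the family, and 1 of the 14 tested rose. HSPA6, a strictly stress-inducible HSP70, had 75.7, 85.3 and 71.9 CPM in PKI, against 41.0, 39.7 and 44.2 CPM in inPKI (log2 change 0.88 ± 0.0674, adjusted p = 7.92e-06 by limma). The stress-inducible pair HSPA1A and HSPA1B lay higher in each PKI library than in any inPKI library, but neither passed with limma on all 6 libraries. HSPA1B passed without PKI C (adjusted p = 0.0414 by limma) and with DESeq2 on recovered reads (adjusted p = 5.98e-05). HSPA1B measured 2521 ± 203 CPM in PKI and 2137 ± 24.4 CPM in inPKI (log2 change 0.24 ± 0.0965, adjusted p = 0.310), and HSPA1A 21.1 ± 1.06 CPM in PKI and 17.4 ± 1.43 CPM in inPKI (log2 change 0.26 ± 0.0765, adjusted p = 0.176). These copies are nearly identical, so the split of reads between them is uncertain. The constitutive HSPA8 had 1770 ± 111 CPM in PKI and 1938 ± 82.3 CPM in inPKI (log2 change −0.13 ± 0.0899, adjusted p = 0.530), and HSPA5, which encodes BiP, 622 ± 42.9 CPM in PKI and 637 ± 9.41 CPM in inPKI (log2 change −0.04 ± 0.0684, adjusted p = 0.845). The median over the 14 was −0.01. At an unadjusted p below 0.05 by limma, HSPA6, HSPA1A, HSPA1B and HSPA12A were higher and 0 were lower. Over all genes tested 7.53% were higher and 6.16% lower. The groups did not overlap in these 4 on the higher side and in 1, HSPA8, on the lower side. HSPA8 separated narrowly, with 1839.5 CPM in PKI A and 1843.9 CPM in inPKI B. The matching shares over all genes tested were 10.9% and 8.88%.

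DNAJB1 was also set against HSPA8, HSPA6, HSPA1B and HSPA1A within a library. Per CPM of HSPA8 there was 0.109, 0.119 and 0.119 CPM of DNAJB1 in PKI, against 0.0744, 0.0799 and 0.0815 in inPKI. Per CPM of HSPA6 the order was the other way, with 2.64, 2.56 and 2.71 in PKI against 3.62, 3.71 and 3.64 in inPKI. Per CPM of HSPA1B it was 0.0834, 0.0792 and 0.0807 in PKI, against 0.0692, 0.0698 and 0.0746 in inPKI. These 3 ratios separated the groups (exact 2-sided permutation p = 0.1 each, the smallest possible). DNAJB1 and HSPA6 had already been called in these libraries, so the p-values of the ratios are no further support for their rise. DNAJB1 over HSPA1A was 9.43, 10.9 and 8.82 in PKI and 8.94, 8.89 and 8.43 in inPKI, where the groups overlapped (exact permutation p = 0.3).

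Nucleotide exchange factors release ADP from HSP70 and so end the cycle that J proteins start. None of the 10 genes listed as such passed the test. Of these, 3 lay above 0 and the median log2 change was −0.03. BAG1 had the smallest p, with 41.9, 43.3 and 36.7 CPM in PKI, against 46.1, 47.1 and 44.5 CPM in inPKI (log2 change −0.17 ± 0.0661, adjusted p = 0.277). Of the J-domain proteins with other names, 5 were in the table, 4 were tested and 0 passed.

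Longer transcripts tended to have higher changes over all genes, and the DNAJ members were spread along the same axis. Across the 37 members, which share the 6 libraries and are not independent replicates, Pearson's r between the log2 change and the log2 of transcript length was 0.22 and Spearman's rho 0.37. Without DNAJB1 they were 0.37 and 0.43, and over 14242 genes 0.31 and 0.42. Of the 18 members longer than 2563 bases, the members' median, 10 lay above 0, and of the 19 others 5. DNAJB1, with a transcript of 1775.5 bases, is among the shorter members. With the trend removed, its log2 change was 0.45 with an adjusted p of 0.000761, and the family median was −0.0067 with 18 members above 0. Whether length sets the pattern of the other members was not tested.

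**Figure D4:**
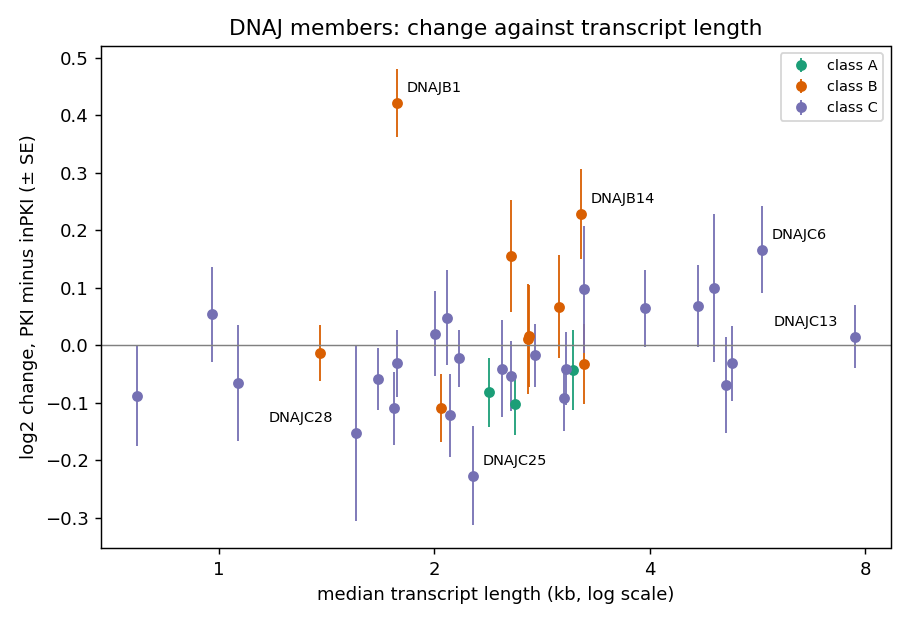
Log2 change of log2(CPM + 1), PKI minus inPKI, with its SE, against the median transcript length in kb on a log axis, for the 37 tested DNAJ members coloured by class. DNAJB1 at 0.42 lies far above the members of like length, while DNAJB14 and DNAJC6 are among the longer members.

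The authors' deposited table of their own comparison holds the 42 members. By its signed fold change 41 of them had the same direction as the CPM, and DNAJB3 had 0 reads in all 6 libraries. That table compares the same groups, so the shared direction is no independent support. Its baseMean is above 0 for 2069 genes at 0 in all 6 libraries, and whether the table draws on other data was not tested. Its log2 fold changes are given with the sign turned to PKI over inPKI, since they are positive where inPKI is higher in CPM. In the authors' deposited table DNAJB1 had a log2 fold change of 0.44 with a standard error of 0.141 and a p of 0.00204, and an adjusted p of 0.712. DNAJB14 followed with 0.26 and a standard error of 0.115, p = 0.0261, in the authors' deposited table. No member had an adjusted p below 0.05 in the authors' deposited table, where 14 genes had one in all.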

How the data were processed

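HEK293 RNA was prepared with a TruSeq mRNA kit, per the labels' protocols. The authors deposited a table of CPM (scaled counts), named as RSEM counts with TMM scaling. Per the submitters' processing notes the build was hg19 and the tools, with no role given, included RSEM 1.3.0, STAR 2.5.2b, cutadapt 1.14 and, by name, DESeq2 1.20.0. The columns sum to 754299 to 785007 CPM. All values (100%, tolerance 0.01 reads) were whole multiples of 1 read's worth, 0.0333 to 0.0437 CPM, so whole reads were recovered. The authors' other deposited table gives, per the file headers, p-values raw and adjusted, a Wald score, a signed fold change (also a score), the mean signal named baseMean, and the log2 fold change and its error. In all 30960 rows its log2 and signed fold changes differ in sign, and the log2 one is positive where inPKI is higher in CPM. It has a baseMean above 0 for 2069 genes that are 0 in all 6 libraries.

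Genes with at least 1 CPM in at least 3 of the 6 libraries (14275) were tested as log2(CPM + 1), a scale that understates the change of low genes. limma 3.58.1 in R 4.3.3 was used 2-sided, with a trend of variance on mean. P-values were adjusted after Benjamini and Hochberg over the 14275 genes, at a threshold of 0.05, and limma gave each adjusted p with no other source named. Errors of log2 changes are standard errors and other errors are SDs. The fits were tested on simulated data, with planted changes larger than that of DNAJB1, in genes with more reads than the lowest members. This check does not reach smaller changes or the lowest members. Alternatives were pseudocounts of 0.25 and 5, no filter, a filter of 5 CPM, median-ratio rescaling, a replicate block, no trend, edgeR 4.0.16 and DESeq2 1.42.0 on recovered reads, removal of the trend with transcript length (lowess, span 0.3), and leaving out each library. Rescaling to equal sums was chosen after seeing the data.

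The family, the role and partner lists and the rule for named genes were chosen with earlier results of these data known. The rule names members past the threshold, the 12 with the smallest p and the 3 of each class with the highest CPM per kb, plus the first of each partner list by p and HSPA1A, HSPA6, HSPA8 and HSPA5. A gene that the rule names is not reported here. Other genes were named after their values were seen. Positions and median transcript lengths are from GENCODE 29 on GRCh38, matched by identifier (30795 matched, 165 not), and promoter sequences are from RefSeq on GRCh38.p14. Figures were drawn with matplotlib 3.10.9.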

Additional observations from a re-analysis of the deposited data

How the results depend on the processing

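DNAJB1 kept its direction in all 17 alternatives, with log2 changes of 0.37 to 0.46 and adjusted p values of 1.37e-13 (DESeq2) to 0.178. It missed the threshold, so that 0 members passed instead of 1, with no filter on low values (adjusted p = 0.170), with limma without a trend (0.178), and without inPKI A (0.0905) or inPKI B (0.0930). Leaving out 1 library gave 0 to 1 members past the threshold. Over the 12 members with the smallest p, which were picked from these data, 0 of 204 values reversed and 196 also kept their side of the threshold. Of the others, 4 are those of DNAJB1, and 4 have no adjusted p (DNAJB14, DNAJB2, DNAJC25 and DNAJC6 with DESeq2). No filter, the filter of 5 CPM, the replicate block and limma without a trend leave log2 changes as they are. Values under these alternatives could not reverse. Apart from DNAJB1 these members had not passed in the main fit, so keeping their side says little. Members at an unadjusted p below 0.05 numbered 4, 3 to 7 with 1 library left out (7 without PKI B), and 6 with edgeR. Members whose groups do not overlap numbered 6, and 7 to 14 with 1 library left out (12 without PKI B, 10 without inPKI B, 14 without inPKI C), since fewer libraries overlap less. The median log2 change of the family, −0.031, ran from −0.038 to 0.016 with 1 library left out (0.016 without PKI C). Median-ratio and equal-sum rescaling shifted the median of all genes by 0.0011 and 0.0088.

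The letters are not stated to pair the libraries, so they were not taken as pairs in the main fit. Same-letter libraries of PKI and inPKI correlated at 0.0171, 0.0138 and 0.0283 (A, B and C) in their deviations from the group means over genes. Each library correlated best with its own letter. With the letter as a replicate block, 1 member passed (DNAJB1, adjusted p = 0.00597), 4 had an unadjusted p below 0.05 and the median was −0.031. Members under 50 reads per library, such as DNAJC28, are limited by depth.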
